A study of Chlamydomonas reinhardtii with 25 samples.

Results

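A set of 10 genes of carbon fixation in the chloroplast of the green alga Chlamydomonas reinhardtii were followed across 5 groups of libraries. They were chosen by their IDs, as a list of Rubisco, pyrenoid and Calvin cycle genes, a rule that uses no measured value. Of the 10 listed, 9 are among the 18024 distinct gene IDs of the count table. The list is RBCS1 (Cre02g120100), RBCS2 (Cre02g120150), RCA1 (Cre04g229300), EPYC1 (Cre10g436550), GAP3 (Cre01g010900), FBA3 (Cre05g234550), SBP1 (Cre03g185550), FBP1 (Cre12g510650), PRK1 (Cre12g554800) and CP12 (Cre08g380250). The table gives IDs without names, and the names are those that came with the list. Of the 10 genes, 8 had counts and all 8 passed the filter on low counts. FBA3 stood at 0 throughout, and GAP3 was not analysed here.

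Rubisco fixes CO2 onto ribulose bisphosphate, and in this alga most of it is packed into the pyrenoid, a dense body in the chloroplast that EPYC1 holds together by binding the Rubisco small subunits. Rubisco activase frees blocked Rubisco active sites. The Calvin cycle then turns the product into sugar phosphates and rebuilds the acceptor, through reductase, aldolase and bisphosphatase steps and a last step run by phosphoribulokinase. CP12 is a small protein that ties phosphoribulokinase and the reductase into an inactive complex under oxidising conditions, such as in the dark. The Rubisco large subunit is encoded in the chloroplast, and its transcript was not analysed here.

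All libraries came from the wild-type strain CC-125, grown to mid-exponential phase at 20 °C with 12 h of light per day, and washed. Exposure lasted 2 h and took place in a NaHEPES buffer (10 mM, pH 7.0) that also held calcium nitrate at 10 µM. The exposed groups received cerium (Ce), thulium (Tm) or yttrium (Y) at 0.5 µM, or an equimolar mixture of the 3 metals (Mix), and the remaining group was the control. For Mix it is unstated if 0.5 µM applies to the sum or to every metal. Each group had 5 libraries, 25 in all, and the labels do not say whether these were separate cultures, so p-values measure only the spread between these samples. Total counts per library, in units of 1e+06, ran from 12.92 to 28.97. Levels are given in CPM, counts scaled to a common library total by the TMM method (edgeR). Changes are log2 fold changes with standard errors (SE) from edgeR's quasi-likelihood test over 12796 transcripts, and a gene is called where the adjusted p is under 0.05. Transcript lengths were not used here, so levels are compared between groups and not between genes.

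In each exposure the transcript of the pyrenoid linker EPYC1 fell, and those of RBCS1 and of the bisphosphatase FBP1 rose, relative to the control. RBCS2 and PRK1 rose in Tm, Y and Mix but not in Ce, where RBCS2 fell and PRK1 was not called with TMM scaling (both were called higher with library totals alone). Genes called higher in all 4 exposures made up 17.8% of all transcripts, and genes called lower in all 4 made up 21.3%. The other 3 tested genes, RCA1, SBP1 and CP12, had smaller or unlike changes. The test for any difference between the 5 groups called 8 of 8 genes, where 96.1% of all transcripts were called. Against the control, Ce had 2 genes higher and 4 lower, Tm 4 higher and 2 lower, Y 5 higher and 2 lower, and Mix 4 higher and 2 lower. These tallies moved with the scaling, most in Ce, where library totals alone gave 7 higher and 1 lower, while 75.1% of all called transcripts were then higher, against 55.3% with TMM. The same scaling gave 5 higher and 1 lower in Tm, 5 and 1 in Y, and 6 and 2 in Mix. Over all transcripts, Ce had 81.1% called in either direction (44.9% higher, 36.2% lower), Tm 69.8% (32.2% and 37.7%), Y 72.6% (35.9% and 36.7%) and Mix 68.4% (30.9% and 37.5%), so the number of called genes in the list lies near this background and only the direction and size of each change are described. The 8 genes had a median log2 change of -0.21 in Ce (all transcripts 0.22), 0.31 in Tm (-0.10), 0.31 in Y (-0.02) and 0.28 under Mix (-0.13). The 4 comparisons share the same control libraries, so their likeness is not independent evidence.

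**Figure D1:**
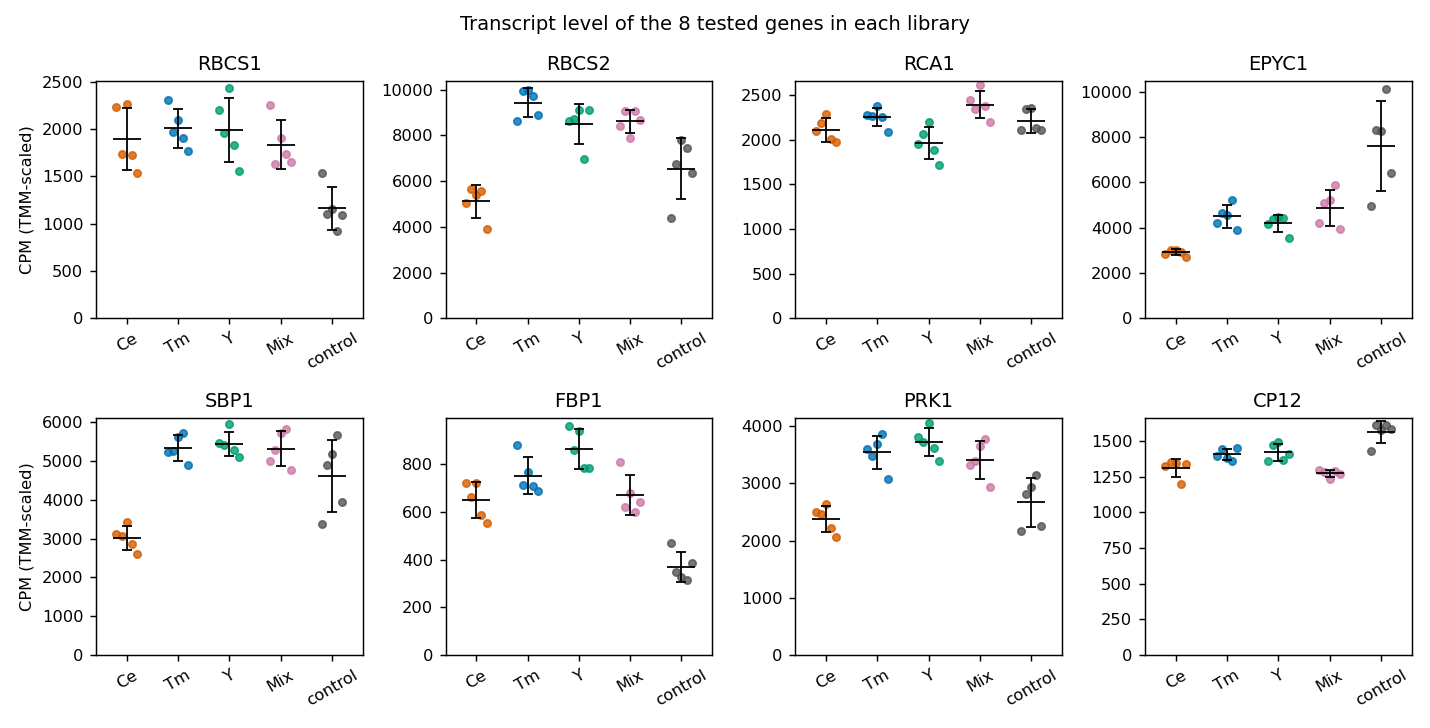
Level of each of the 8 tested genes in CPM (y axis, from 0) in the Ce, Tm, Y, Mix and control libraries (x axis); points are libraries 1 to 5 from left to right within a group, the long bar is the mean and the error bar the SD. EPYC1 averaged 2909 to 4858 CPM in the exposed groups and 7605 CPM in the control. The control libraries spread most for this gene with TMM scaling, but not with library totals alone.

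RBCS1, 1 of a pair of nuclear genes for the Rubisco small subunit, had 2230, 1733, 2265, 1726 and 1534 CPM in Ce libraries 1 to 5. It had 2305, 1973, 2099, 1902 and 1765 CPM in Tm, 2202, 1960, 2433, 1828 and 1553 CPM in Y, and 2252, 1626, 1908, 1738 and 1656 CPM in Mix. The control libraries had 1531, 1100, 1156, 928 and 1094 CPM. With TMM scaling each exposed library thus lay above each control library, with control library 1 the highest of its group and close to the lowest exposed ones. With library totals alone control library 1 lay above some libraries of Tm, Y and Mix, and below each Ce library. The log2 fold change was 0.71 ± 0.13 in Ce (adjusted p = 2.63e-05), 0.79 ± 0.13 in Tm (adjusted p = 7.52e-06), 0.78 ± 0.13 in Y (adjusted p = 7.77e-06) and 0.66 ± 0.13 under Mix (adjusted p = 8.78e-05). Group ranges without overlap and higher in the exposure were found for 36.2% of all transcripts in Ce, 23.2% in Tm, 27.9% in Y and 21.2% under Mix. Between exposures RBCS1 was not called by edgeR with TMM scaling. Its log2 difference was -0.08 ± 0.13 for Ce against Tm and -0.07 ± 0.13 for Ce against Y. Library totals alone put these at 0.53 and 0.50, both called higher in Ce (edgeR adjusted p = 0.00887 and 0.0145). Upper-quartile factors put them at 0.11 and 0.15, neither called.

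RBCS2, the other small-subunit gene, lies next to RBCS1 in the RefSeq annotation of assembly v5.5. The coding sequences of the pair are closely alike, and the sources do not state how reads that match both were counted, so the split of counts between them is uncertain. RBCS2 had 5049, 5655, 5392, 5560 and 3917 CPM in Ce libraries 1 to 5. The other exposed groups were higher, with 8628, 9949, 9990, 9717 and 8873 CPM in Tm, 8628, 8696, 9096, 6980 and 9113 CPM in Y, and 8397, 9065, 7890, 9072 and 8680 CPM in Mix. The control libraries had 4384, 6752, 7815, 7434 and 6364 CPM, a range that overlapped with Ce and Y and lay below Tm and Mix. RBCS2 rose by 0.53 ± 0.12 on the log2 scale in Tm (adjusted p = 0.000268), 0.38 ± 0.12 in Y (adjusted p = 0.00558) and 0.40 ± 0.12 under Mix (adjusted p = 0.00411). In Ce it was at -0.36 ± 0.12 (adjusted p = 0.00719), but at -0.16 and not called with upper-quartile factors, and at 0.42 with library totals alone (adjusted p = 6e-05). Each Ce library lay below each Tm, Y and Mix library, which held for 30.2% of all transcripts for Tm, 31.7% for Y and 29.2% for Mix.

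The direction of such changes in Ce rests on the scaling. The TMM factors of the Ce libraries ran from 1.40 to 1.46, against 0.86 to 0.99 in the other exposures and 0.69 to 1.16 in the control. Control library 1 had the 1.16, and the other control libraries had 0.69 to 0.89. With library totals alone the median log2 change of all transcripts in Ce was 0.95 in place of 0.22, and RBCS2, SBP1 and CP12 then had the opposite sign. Set relative to the median of all transcripts, RBCS2 was at -0.58 with TMM and -0.53 with library totals. On that footing RBCS1 and FBP1 lay above the median and the other 6 genes below it under each of the 5 scalings compared. A scaling moves the transcripts of a library together, so subtracting the median largely cancels it, and agreement between scalings is no added evidence.

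**Figure D2:**
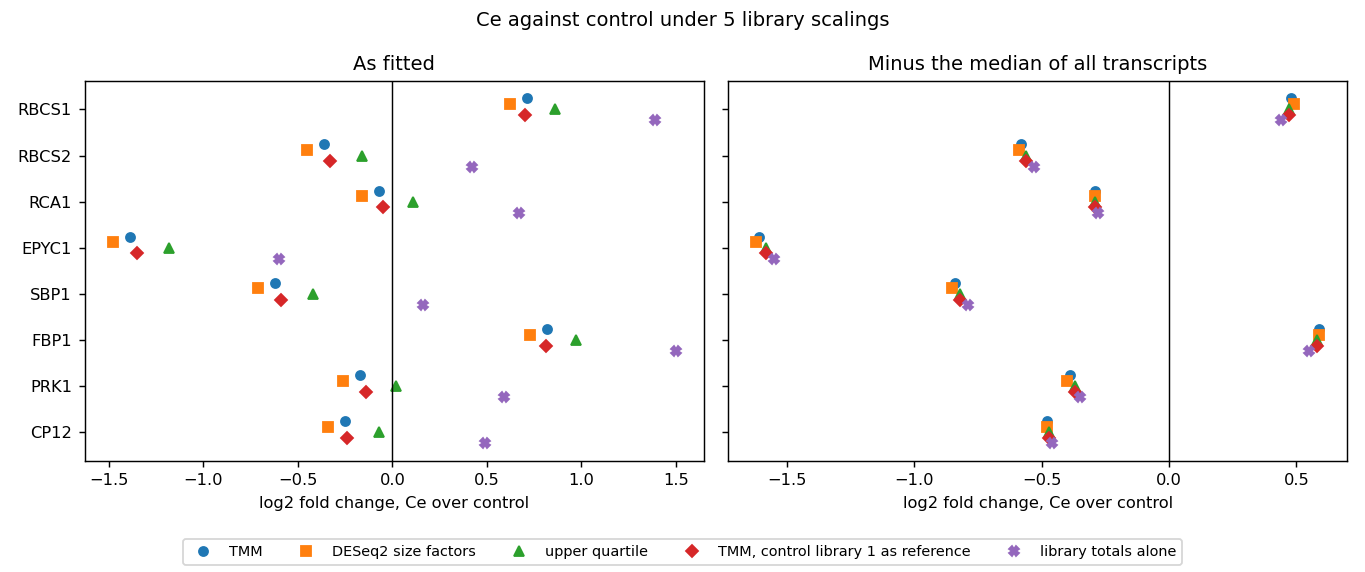
Log2 fold change of Ce over control (x axis) for the 8 tested genes (y axis) under 5 library scalings, as fitted (left) and minus the median of all transcripts (right). RBCS2 ran from -0.45 to 0.42 as fitted, with library totals alone turning its sign. It ran from -0.59 to -0.53 relative to the median, a step that largely cancels the scaling.

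A ratio of 2 genes within a library does not depend on scaling. The ratio of RBCS2 to RBCS1 counts was 2.26 to 3.26 in Ce, 3.74 to 5.11 in Tm, 3.74 to 5.87 in Y, 3.73 to 5.57 in Mix and 2.86 to 8.01 in the control. Ce lay below the other exposures without overlap. The log2 ratio was lower by 0.80 ± 0.14 than in Tm and by 0.67 ± 0.16 than in Y, and Mix was higher than Ce by 0.80 ± 0.16 (exact two-sided permutation tests, p = 0.00794 each, the lowest that 5 against 5 allows, adjusted p = 0.0265 over 10 pairs of groups). Ce differed from the control by -1.05 ± 0.28 with an adjusted p of 0.0595 in the exact test. Control library 1, with a ratio of 2.86, was the lowest of its group (the others 5.82 to 8.01). The outlier search described below did not flag it. Without control library 1 the difference was -1.29 (adjusted p = 0.0265, exact permutation test), and Tm, Y and Mix then also passed, at -0.50, -0.63 and -0.49. Over all fits without 1 library, the exact adjusted p reached 0.119 in Ce, 0.811 in Tm and Mix and 0.635 in Y.

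RCA1, Rubisco activase, had small differences between the groups, with the highest group mean 1.22 times the lowest. It ranged from 1969 to 2282 CPM in Ce, 2087 to 2375 in Tm, 1713 to 2193 in Y, 2196 to 2610 in Mix and 2104 to 2358 CPM in the control, and each of the exposed ranges overlapped with the control. Its log2 change was -0.07 ± 0.08 in Ce (0.67 with library totals alone, 0.11 with upper-quartile factors), 0.03 ± 0.08 in Tm and 0.12 ± 0.08 in Mix, none of them called by edgeR with TMM scaling. With control library 1 as the scaling reference RCA1 was called higher in Tm (0.24, edgeR adjusted p = 0.00364) and Mix (0.37, edgeR adjusted p = 3.72e-05). Scaling by library totals alone called it higher in Ce (edgeR adjusted p = 1.3e-07) and Mix (0.22, edgeR adjusted p = 0.0301). In Y it was at -0.17 ± 0.08 with an edgeR adjusted p of 0.0499. That call was lost in 6 of 10 fits that left out 1 library of either group, with control library 1 as reference (-0.06) and with library totals alone (-0.01). RCA1 was higher in Mix than in Y, by 0.29 ± 0.08 (edgeR adjusted p = 0.00547), with no overlap of the libraries, where 14.7% of all transcripts lay above Y without overlap.

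EPYC1, the linker that gathers Rubisco into the pyrenoid, had 2857, 3032, 3022, 2923 and 2709 CPM in Ce libraries 1 to 5. It had 4188, 4623, 4556, 5214 and 3891 CPM in Tm, 4144, 4364, 4461, 4422 and 3532 CPM in Y, and 4213, 5065, 5216, 5865 and 3929 CPM in Mix. The control libraries had 4940, 8322, 8266, 10095 and 6404 CPM. With TMM scaling Ce and Y lay below the control without overlap, while in Tm and Mix the overlap came from control library 1. With library totals alone each exposed library lay below each control library. EPYC1 fell by 1.39 ± 0.14 on the log2 scale in Ce (adjusted p = 3.64e-10), to 38.2% of the control level. The fall was 0.76 ± 0.13 in Tm (adjusted p = 1.33e-05), 0.86 ± 0.13 in Y (adjusted p = 1.71e-06) and 0.65 ± 0.13 under Mix (adjusted p = 0.000112), which left 59.1%, 55% and 63.9% of the control level. Of all transcripts, 27.9% lay below the control without overlap in Ce and 26.1% in Y. Under each of the 5 scalings EPYC1 was lower than the control in each exposure and remained called, and in Ce it was at -0.60 with library totals alone.

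**Figure D3:**
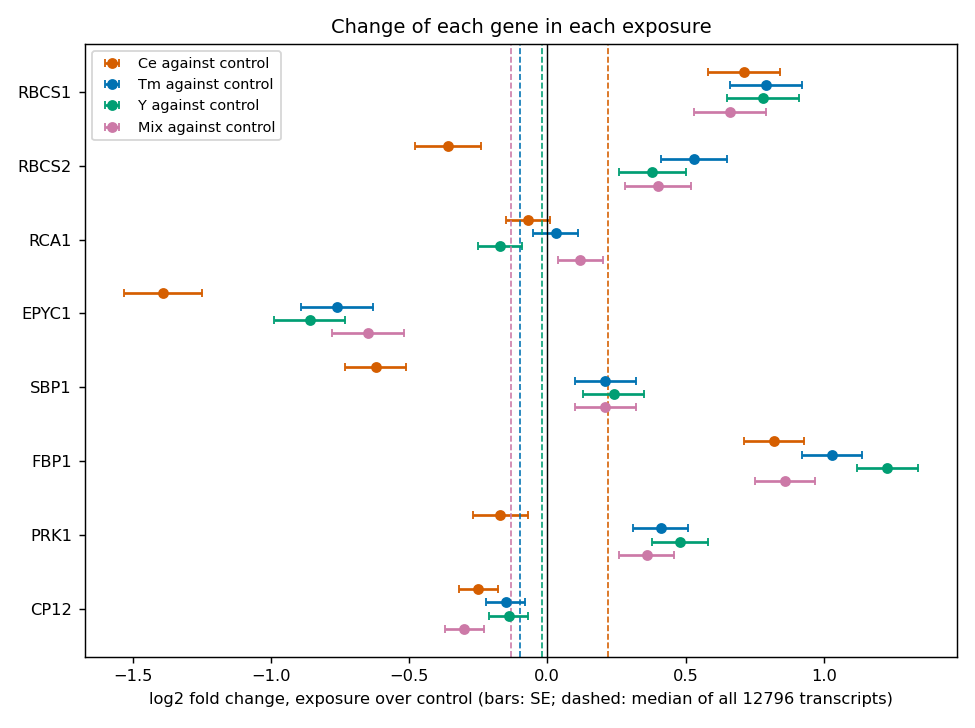
Log2 fold change of each exposure over the control (x axis) for the 8 tested genes (y axis), with SE bars; dashed lines are the medians of all transcripts tested in the same colours. EPYC1 was at -1.39 to -0.65 and FBP1 at 0.82 to 1.23 in the 4 exposures, while RBCS2, SBP1 and PRK1 were below 0 in Ce alone with TMM scaling (all 3 above 0 with library totals alone).

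Set against its Rubisco partner, EPYC1 was lower than in the control in each of the 4 exposures. The ratio of EPYC1 counts to the summed counts of RBCS1 and RBCS2, chosen after the values were seen, was 0.393, 0.410, 0.395, 0.401 and 0.497 in Ce libraries 1 to 5 and 0.383, 0.388, 0.377, 0.449 and 0.366 in Tm. It was 0.383, 0.410, 0.387, 0.502 and 0.331 in Y and 0.396, 0.474, 0.532, 0.543 and 0.380 in Mix, against 0.835, 1.06, 0.921, 1.21 and 0.859 in the control. Each of the 20 exposed libraries lay below each of the 5 control libraries. The sum of both RBCS genes also avoids the uncertain split of reads between them. The log2 ratio differed from the control by -1.21 ± 0.12 in Ce, -1.30 ± 0.11 in Tm, -1.28 ± 0.14 in Y and -1.07 ± 0.15 under Mix (exact two-sided permutation tests, p = 0.00794 each, adjusted p = 0.0159 over 30 tests of 3 ratios). EPYC1 was called lower and RBCS1 higher in each exposure, so a separation follows in part from the choice of this ratio. The adjustment does not cover that choice. Between exposures no difference in this ratio passed the exact test, with values from -0.03 ± 0.11 for Tm against Y to 0.23 ± 0.12 for Mix against Tm. The lower EPYC1 level in Ce than in Tm (-0.63 ± 0.13, edgeR adjusted p = 0.000134) or Y (-0.52 ± 0.13, edgeR adjusted p = 0.000977) was at -0.01 and 0.04 with library totals alone.

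**Figure D4:**
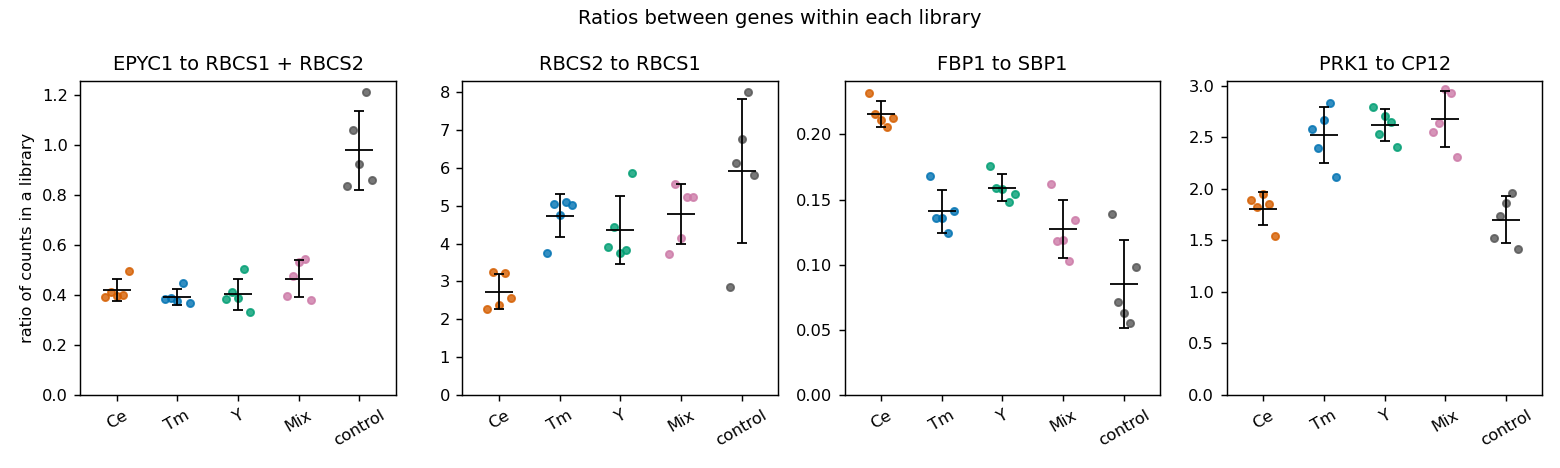
Ratio of counts between 2 genes (or a gene and the sum of both RBCS genes) in each library (y axis, from 0) for the Ce, Tm, Y, Mix and control groups (x axis), with mean and SD. EPYC1 relative to RBCS1 plus RBCS2 was 0.331 to 0.543 in the exposed libraries and 0.835 to 1.21 in the control, while PRK1 relative to CP12 in Ce (1.54 to 1.95) overlapped with the control (1.42 to 1.96).

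The 2 bisphosphatases, which carry out irreversible steps of the cycle, had fitted changes of unlike size, and of opposite sign in Ce with TMM scaling. FBP1, fructose-bisphosphatase, had 722, 660, 723, 588 and 554 CPM in Ce libraries 1 to 5, 879, 714, 766, 709 and 689 in Tm, 962, 858, 939, 782 and 785 in Y, and 809, 621, 679, 601 and 640 CPM in Mix. The control libraries had 468, 349, 326, 313 and 387 CPM, below each of the exposed libraries. FBP1 rose by 0.82 ± 0.11 in Ce (adjusted p = 1.92e-07), 1.03 ± 0.11 in Tm (adjusted p = 3.77e-09), 1.23 ± 0.11 in Y (adjusted p = 8.34e-11) and 0.86 ± 0.11 under Mix (adjusted p = 1e-07) on the log2 scale. A rise of at least 2-fold with an adjusted p under 0.05, reached by FBP1 in Tm and Y, was found for 16.5% and 21.3% of all transcripts there. Y was the highest group and exceeded Mix, which was at -0.37 ± 0.11 against it (edgeR adjusted p = 0.0116). That call was lost with upper-quartile factors (-0.32, edgeR adjusted p = 0.0515) and with control library 1 as reference (-0.23, edgeR adjusted p = 0.135). Y also exceeded Ce, which was at -0.41 ± 0.11 (edgeR adjusted p = 0.00165) but at -0.19 with upper-quartile factors and 0.15 with library totals alone, neither called.

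SBP1, sedoheptulose-bisphosphatase, ranged from 2605 to 3418 CPM in Ce, 4891 to 5725 in Tm, 5087 to 5944 in Y and 4761 to 5824 under Mix, against 3363 to 5673 CPM in the control. With TMM scaling it fell below the control in Ce, at -0.62 ± 0.11 (edgeR adjusted p = 8.14e-06), while library totals alone put it at 0.16. In Tm and Mix it was at 0.21 ± 0.11 in both and not called by edgeR with TMM scaling. It was called higher there with upper-quartile factors (0.22 and 0.23, edgeR adjusted p = 0.0275 and 0.0212), library totals alone (0.37 and 0.34, edgeR adjusted p = 2.52e-06 and 7.62e-06) and control library 1 as reference (0.44 and 0.48, edgeR adjusted p = 6.41e-05 and 2.23e-05). In Y it was at 0.24 ± 0.11 with an edgeR adjusted p of 0.0483, a call lost in 6 of 10 fits without 1 library and with DESeq2 (0.18, adjusted p = 0.184). The ratio of FBP1 to SBP1 counts, also chosen after the values were seen, averaged 0.216 ± 0.00994 in Ce, 0.141 ± 0.0165 in Tm, 0.159 ± 0.0103 in Y, 0.127 ± 0.0223 in Mix and 0.0853 ± 0.0342 in the control (SD, n = 5 each). Ce was higher than each other group without overlap (exact permutation tests, p = 0.00794 and adjusted p = 0.0159 for each pair). The log2 ratio exceeded that of the control by 1.42 ± 0.24 in Ce and 0.98 ± 0.24 in Y, which passed the exact test, and by 0.80 ± 0.25 in Tm and 0.64 ± 0.26 in Mix, which did not (adjusted p = 0.0595 and 0.0926, exact). Control library 1 had the highest ratio of its group, 0.139, and without it the differences in Tm and Mix were 1.00 and 0.84 and passed. The outlier search described below did not flag this library. Over all fits without 1 library, the exact adjusted p reached 0.112 in Tm and 0.167 in Mix.

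PRK1, phosphoribulokinase, which makes the CO2 acceptor, had 2061 to 2632 CPM in Ce, 3077 to 3856 in Tm, 3387 to 4047 in Y and 2930 to 3781 under Mix, against 2168 to 3154 CPM in the control. It rose by 0.41 ± 0.10 in Tm (adjusted p = 0.000784), 0.48 ± 0.10 in Y (adjusted p = 0.000124) and 0.36 ± 0.10 under Mix (adjusted p = 0.00282) on the log2 scale. Of these exposures, Y lay above the control without overlap. In Ce PRK1 was at -0.17 ± 0.10 (edgeR adjusted p = 0.129), and at 0.02 with upper-quartile factors. It was called in opposite directions by other scalings, higher with library totals alone (0.59, edgeR adjusted p = 1.59e-08) and lower with DESeq2's size factors (-0.26, edgeR adjusted p = 0.0358).

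CP12, the inhibitor that binds phosphoribulokinase, varied little within groups with TMM scaling, with coefficients of variation of 2.02% to 4.99%. These were the smallest of the 8 genes in each group but Ce, where EPYC1 had 4.57%. With library totals alone CP12 spread more in the control than EPYC1, SBP1 and PRK1. It ranged from 1197 to 1355 CPM in Ce, 1361 to 1452 in Tm, 1361 to 1496 in Y and 1233 to 1299 under Mix, against 1428 to 1617 CPM in the control. CP12 fell by 0.30 ± 0.07 on the log2 scale in Mix (edgeR adjusted p = 0.000339), with no overlap (23.0% of all transcripts lay below the control in this way), although with control library 1 as the scaling reference it was at -0.04 and not called. In Ce it was at -0.25 ± 0.07 (edgeR adjusted p = 0.00127), while upper-quartile factors put it at -0.07, not called, and library totals alone at 0.49, called higher (edgeR adjusted p = 7.57e-07). In Tm it was at -0.15 ± 0.07 with an edgeR adjusted p of 0.0465, a call lost in 9 of 10 fits that left out 1 library, with a value of 0.06 without Tm library 2, the scaling reference. In Y it was at -0.14 ± 0.07 (edgeR adjusted p = 0.0668), library totals alone put it at 0.03, and it was called lower with DESeq2's size factors (-0.20, edgeR adjusted p = 0.0216), upper-quartile factors (-0.18, edgeR adjusted p = 0.00529) and DESeq2 (-0.19, adjusted p = 0.000581).

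The ratio of PRK1 to CP12 counts, chosen after the values were seen, was 1.54 to 1.95 in Ce, 2.12 to 2.83 in Tm, 2.41 to 2.80 in Y, 2.31 to 2.97 in Mix and 1.42 to 1.96 in the control. Tm, Y and Mix lay above both Ce and the control without overlap. The log2 ratio exceeded that of the control by 0.57 ± 0.11 in Tm, 0.63 ± 0.09 in Y and 0.66 ± 0.11 under Mix (exact permutation tests, p = 0.00794 and adjusted p = 0.0159 each). In Ce the difference from the control was 0.10 ± 0.11 (adjusted p = 0.41, exact).

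Between exposures, most called differences involved Ce with TMM scaling, and several of them lost the call or changed sign with library totals alone. Ce was lower than Tm in RBCS2, EPYC1, SBP1 and PRK1, where 34.2% of all transcripts were called lower, and lower than Y in RBCS2, EPYC1, SBP1, PRK1 and FBP1, beside 34.2% as well. RBCS2 was at -0.88 ± 0.12 against Tm and -0.73 ± 0.12 against Y, SBP1 at -0.83 ± 0.11 and -0.85 ± 0.11, and PRK1 at -0.58 ± 0.10 and -0.65 ± 0.10 (edgeR adjusted p of 1.1e-05 or less for each). With library totals alone RBCS2 was at -0.26 and -0.16 (the second not called), SBP1 at -0.21 and -0.29, and PRK1 was at 0.04 against Tm and -0.08 against Y. With that scaling Ce had 4 of the 8 genes called higher and 2 lower than Tm, and 3 higher and 1 lower than Y, where TMM gave 0 higher and 4 lower, and 0 higher and 5 lower. Called transcripts in all were then 76.1% higher against Tm and 75.4% against Y, where TMM gave 55.3% and 53.7%. With TMM these genes lay below the median of all transcripts, which was 0.18 for Ce against Tm and 0.11 for Ce against Y. In Mix against Ce, RBCS2, EPYC1, SBP1 and PRK1 were higher by 0.75 ± 0.12, 0.74 ± 0.13, 0.82 ± 0.11 and 0.52 ± 0.10 with TMM scaling. With library totals alone SBP1 was still called, at 0.19, and RBCS2 (0.12), EPYC1 (0.10) and PRK1 (-0.11) were not. RCA1 was also called there, at 0.18 ± 0.08 (edgeR adjusted p = 0.0358), but at 0.01 with upper-quartile factors and at -0.45, called lower, with library totals alone. The tally of 5 higher and 0 lower in Mix was then 1 higher and 4 lower, while the share of called transcripts that were higher was 23.9%, against 43% with TMM. Of all transcripts, 33.9% were called higher in Mix than in Ce.

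Between Tm, Y and Mix few of these genes were called. Tm against Y had 0 of the 8 genes called by edgeR, where 20.8% of all transcripts were called, with 1 gene, RCA1, at an unadjusted p under 0.05 (0.0158), and 1 gene called by DESeq2. The log2 differences ran from -0.20 to 0.20, and the approximate 95% intervals lay within -0.42 and 0.38. Mix against Tm also had 0 of 8 called by edgeR and 0 by DESeq2, beside 1.17% of all transcripts, with differences from -0.17 to 0.11 and intervals within -0.39 and 0.37. CP12 alone had an unadjusted edgeR p under 0.05 in Mix against Tm (0.0428), and its Mix libraries lay below those of Tm without overlap, which 1.99% of all transcripts did. Mix against Y had RCA1 higher and FBP1 lower, beside 35.6% of all transcripts called. Against the mean of the 3 metals, RCA1, EPYC1 and SBP1 were higher in Mix, by 0.19 ± 0.06, 0.36 ± 0.11 and 0.26 ± 0.09 (edgeR adjusted p = 0.0157, 0.00705 and 0.0132), where 25.2% of all transcripts were called higher. With library totals alone these were -0.05, 0.11 and 0.02, none called, and the tally of 3 higher and 0 lower became 0 higher and 2 lower (26.9% of called transcripts higher, against 46.8% with TMM). With TMM, SBP1 in Mix was at -0.01 ± 0.11 against Tm and -0.03 ± 0.11 against Y.

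Within groups the genes varied by library. In Ce, Tm, Y and Mix, library 5 had the lowest CPM of the group for RCA1, EPYC1, SBP1 and PRK1, and in the control library 1 did. With TMM scaling control library 1 was the lowest of its group in 6 of the 8 genes. It was the highest in RBCS1 and FBP1, the genes that rose in each exposure. The low ranks of this library rest largely on its TMM factor of 1.16, against 0.69 to 0.89 in the other control libraries. With library totals alone it was the lowest in RBCS2 only, and the highest in RCA1, PRK1 and CP12 as well as RBCS1 and FBP1. With TMM scaling the control spread most for EPYC1, with a coefficient of variation of 26.0%, against 4.57% in Ce and 9.19% to 16.2% in the other exposures. With library totals alone EPYC1 spread less in the control than in Mix, and the control spread more for FBP1 than for EPYC1. Together the 8 genes took 2.76% ± 0.236 of all counts in Ce, 2.72% ± 0.158 in Tm, 2.70% ± 0.127 in Y, 2.61% ± 0.103 in Mix and 2.24% ± 0.0908 in the control (SD, n = 5 each). These shares rest on library totals alone, the scaling with which 7 of the genes were called higher in Ce, against 2 with TMM.

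FBA3, the chloroplast aldolase of the list, stood on 2 lines of the table, both at 0 in each library, which by counting error alone allows up to 0.0821 to 0.254 CPM (3 counts per library, on the TMM scale). Of the 1502 IDs on 2 lines, 736 (49.0%) were at 0 on both lines in each library, against 3.15% of the IDs on 1 line. No level or change can therefore be given for FBA3.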

How the data were processed

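The authors deposited a table of raw counts of reads per annotated transcript (19526 lines), not normalised, with 1 column per library. The submitters' processing notes list SAMtools 1.2, TopHat2 2.0.14 and Trim Galore 0.3.7. Neither the counter and its strand setting nor the build and annotation is named there, so overlapping genes and near-identical copies may share reads, and positions are left out. In 34 cells, 0 of them in these genes, the text "PAC:" was removed from the number. Columns were matched to samples by title.

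The test was edgeR 4.0.16 in R 4.3.3 (quasi-likelihood, robust, TMM with Tm library 2 as reference, filterByExpr by group), with 1 fit of all 25 libraries, 12796 transcripts and Benjamini-Hochberg adjustment over all of them in each comparison. Each SE was taken from the change and its F statistic (the size of the change over the root of F). Ratios of counts were compared by exact permutation tests (scipy 1.17.1), adjusted over 10 pairs of groups for RBCS2 to RBCS1 and over 30 tests for 3 further ratios. The adjustment does not cover the choice of these 3 ratios after the values were seen. The edgeR step was tested on simulated counts for Ce and for Mix against the control. The simulation changed only a small part of the transcripts, evenly up and down, unlike these data, so it does not bear on the scaling. All 10 listed genes were to be named. Members, lists and tests were chosen with earlier results of these data known. Lists of other Calvin cycle and pyrenoid genes were not used, since the reference names no gene.

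Same-numbered libraries were checked for pairing by correlating their deviations from the group means across genes. For Tm with Mix (0.193 to 0.440) and Ce with Y (0.111 to 0.188) each of the 5 correlations exceeded 0.1. The labels give no ground for this pairing. By another count, the same-numbered library was the closest match in 10 of 10 searches for Ce with Tm, Ce with Y and Tm with Mix. That count was 8 for Tm with Y, 7 for the control with Mix and 1 to 6 for the other pairs of groups. Some pairing beyond the first 2 pairs of groups is therefore not excluded. No 2 libraries of a group agreed within sampling noise (lowest chi-square per degree of freedom 5.45). Alternatives were other scalings, no filter, DESeq2 1.42.0, limma 3.58.1, fewer groups, repeated IDs summed, a replicate block and leaving out each library.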

Additional observations from a re-analysis of the deposited data

Results flagged for a closer look

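In a search of 60 groups of 5 values (8 genes and 4 ratios in 5 groups), 6 held a library that stood apart from the other 4 by more than 0.71 of the whole range. Chance flags about 1 in 20 groups. CP12 was lowest in Ce library 4 (1197 CPM, the others 1324 to 1355) and in control library 1 (1428 CPM, the others 1580 to 1617). With library totals alone control library 1 was the highest of its group for CP12. RBCS2 was lowest in Y library 4 (6980 CPM, the others 8628 to 9113). The ratio of RBCS2 to RBCS1 was lowest in Tm library 1 (3.74, the others 4.76 to 5.11). The ratio of EPYC1 to both RBCS genes was highest in Ce library 5 (0.497, the others 0.393 to 0.410) and in Tm library 4 (0.449, the others 0.366 to 0.388). Neither brought the ratio near the control range of 0.835 to 1.21.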

How the results depend on the processing

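Scaling moved the results most. With library totals alone, 14 of 53 single-gene results changed sign: in Ce against the control RBCS2 (0.42), RCA1 (0.67), SBP1 (0.16), PRK1 (0.59) and CP12 (0.49), in Y against the control CP12 (0.03), in Ce against Tm RBCS1 (0.53) and PRK1 (0.04), in Ce against Y RBCS1 (0.50), EPYC1 (0.04) and FBP1 (0.15), in Mix against Ce RCA1 (-0.45) and PRK1 (-0.11), and in Mix against the mean of the metals RCA1 (-0.05). Upper-quartile factors turned RCA1 (0.11) and PRK1 (0.02) in Ce against the control and RBCS1 against Tm (0.11) and Y (0.15). CP12 in Tm was at 0.06 with control library 1 as reference, with repeated IDs summed and the reference chosen anew (an alternative chosen after seeing the data), and without Tm replicate 2, and it ran from -0.18 to 0.06 over the fits without 1 library. RBCS1 in Ce against Y ran from -0.15 to 0.01, the highest without Y replicate 3. The 4 genes called in Ce against Tm were 7 with DESeq2's size factors, DESeq2, control library 1 as reference or the reference chosen anew. Tm against Y had 1 in place of 0 with these, with upper-quartile factors, limma voom and the replicate block, and 2 with only its groups. Mix against Y had 1 with upper-quartile factors and 4 with library totals alone, in place of 2. Mix against the mean of the metals had 5 in place of 3 with control library 1 as reference, the reference chosen anew, limma voom, only the groups compared and the replicate block. Without 1 library, the count ran from 4 to 7 in Ce against Tm, 0 to 1 in Tm against Y and 2 to 5 in Mix against the mean. The replicate block otherwise moved no count by more than 1.5 times, but with it SBP1 was called higher in Tm (edgeR adjusted p = 0.0227) and Mix (edgeR adjusted p = 0.0293) against the control. In the pairing check, 2 of the 5 correlations exceeded 0.1 for the control with Tm and 3 for the control with Mix. Pairing same-numbered libraries by sign flips left the RBCS2 to RBCS1 differences at -0.80 (Ce and Tm), -0.67 (Ce and Y) and 0.80 (Mix and Ce), with an exact p of 0.0625, the lowest that 5 pairs allow. Without 1 library they ran from -0.88 to -0.73, -0.73 to -0.55 and 0.74 to 0.89, with an exact adjusted p of 0.0529, since fewer libraries raise the lowest p. Against the control this log2 ratio ran from -1.29 to -0.92 in Ce, -0.50 to -0.12 in Tm, -0.63 to -0.26 in Y and -0.49 to -0.12 in Mix, and that of FBP1 to SBP1 from 0.67 to 1.00 in Tm and 0.51 to 0.84 in Mix. Apart from the exact tests the cause was not tested. The any-difference test was not run with DESeq2 or with only the groups compared. The labels give no lane or day per library.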
